A study of Mus musculus with 12 samples.

Results

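The 10 genes described here encode proteins that release arachidonic acid or help turn it into prostaglandins and leukotrienes, together with Pla2g7, which encodes a secreted phospholipase. All 10 are called enzymes here for short, although Alox5ap encodes a helper protein. They were taken by symbol from a deposited table of 23438 mouse genes, and all 10 were found. They are Pla2g7, Pla2g4a, the cyclooxygenase arm (Ptgs1, Ptgs2, Ptges and Hpgds) and the lipoxygenase arm (Alox5, Alox5ap, Lta4h and Ltc4s). RNA sequencing was done on total RNA of bone marrow derived macrophages (BMDMs), which are macrophages grown from marrow cells in culture, harvested at day 7. The donors were atherosclerotic C57 mice. There were 7 libraries of wild-type (WT) cells and 5 of Baf60a knockout (KO) cells. Baf60a is the product of Smarcd1, a subunit of the SWI/SNF complex that moves nucleosomes. The labels name no Cre line, allele, age or sex, give the same culture for both genotypes, and do not say whether each library came from its own mouse. The p-values therefore measure how far these libraries spread, and that spread may be technical.

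Eicosanoids are short-lived lipid signals made on demand from arachidonic acid, which the cytosolic phospholipase A2 encoded by Pla2g4a cuts out of membranes. Cyclooxygenases (Ptgs1, which most cells keep on, and Ptgs2, which inflammatory and growth signals induce) convert it to prostaglandin H2, and terminal synthases then make prostaglandin E2 (Ptges) or prostaglandin D2 (Hpgds). In the other arm 5-lipoxygenase (Alox5), helped by the membrane protein FLAP (Alox5ap), makes leukotriene A4, from which Lta4h makes leukotriene B4 and Ltc4s makes leukotriene C4. Macrophages are a classic source of both families. Pla2g7 encodes the lipoprotein-associated phospholipase A2, also called platelet-activating factor (PAF) acetylhydrolase, a macrophage product long studied in human plaques.

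Values are in TPM, the share of a library's transcripts that a gene gives after correction for its length, so levels can be compared between genes. TPM keeps no sequencing depth, so no counting error could be given. The test covered the 11152 genes with a minimum of 1 TPM in 5 or more libraries, among them all 10 enzymes. Smarcd1 had a log2 difference of -0.88 ± 0.0801 (SE; adjusted p in limma 0.000744); it was lower in KO, and transcripts remained. The summed TPM of 6 macrophage markers ran from 5314 to 5401 for KO and from 5287 to 6384 for WT replicates 1, 5, 6 and 7. In WT replicates 2, 3 and 4 it was 2012 to 3369, with 2 of the 6 markers (C1qa and Csf1r) below all other libraries and 4 overlapping them, while 7 stromal markers summed to 3903 to 9784 TPM there and to 112 to 605 TPM in the other 9 libraries. These 3 libraries stood apart in 49.1% of all tested genes, where they lay above or below all 9 others. Each comparison is therefore given with all 12 libraries and with the 9 left without them. In whole cultures, fewer cells of a type and less RNA per cell cannot be told apart.

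Levels differed widely between the enzymes. Alox5ap was the most abundant, with 220.5 TPM in the lowest and 636.5 TPM in the highest library. Hpgds lay between 42.3 and 102 TPM, Lta4h between 43.3 and 61.1 TPM and Pla2g7 between 30.6 and 258 TPM. Pla2g4a lay at 26.9 to 46.8 TPM, Ltc4s at 17.9 to 32.1 TPM and Ptgs1 at 6.15 to 35.3 TPM. From Hpgds down the ranges of neighbours as listed here overlapped, so the list is no ranking, while those of Alox5ap and Hpgds did not. By mean over the 12 libraries Pla2g7, at 85.3 TPM, was above Hpgds, at 74.7 TPM. Alox5 lay at the bottom with Ptges, at 1.15 to 11.7 TPM and 0.940 to 19.1 TPM. Ptgs2 had the widest range in fold terms, from 2.25 to 121 TPM.

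**Figure D1:**
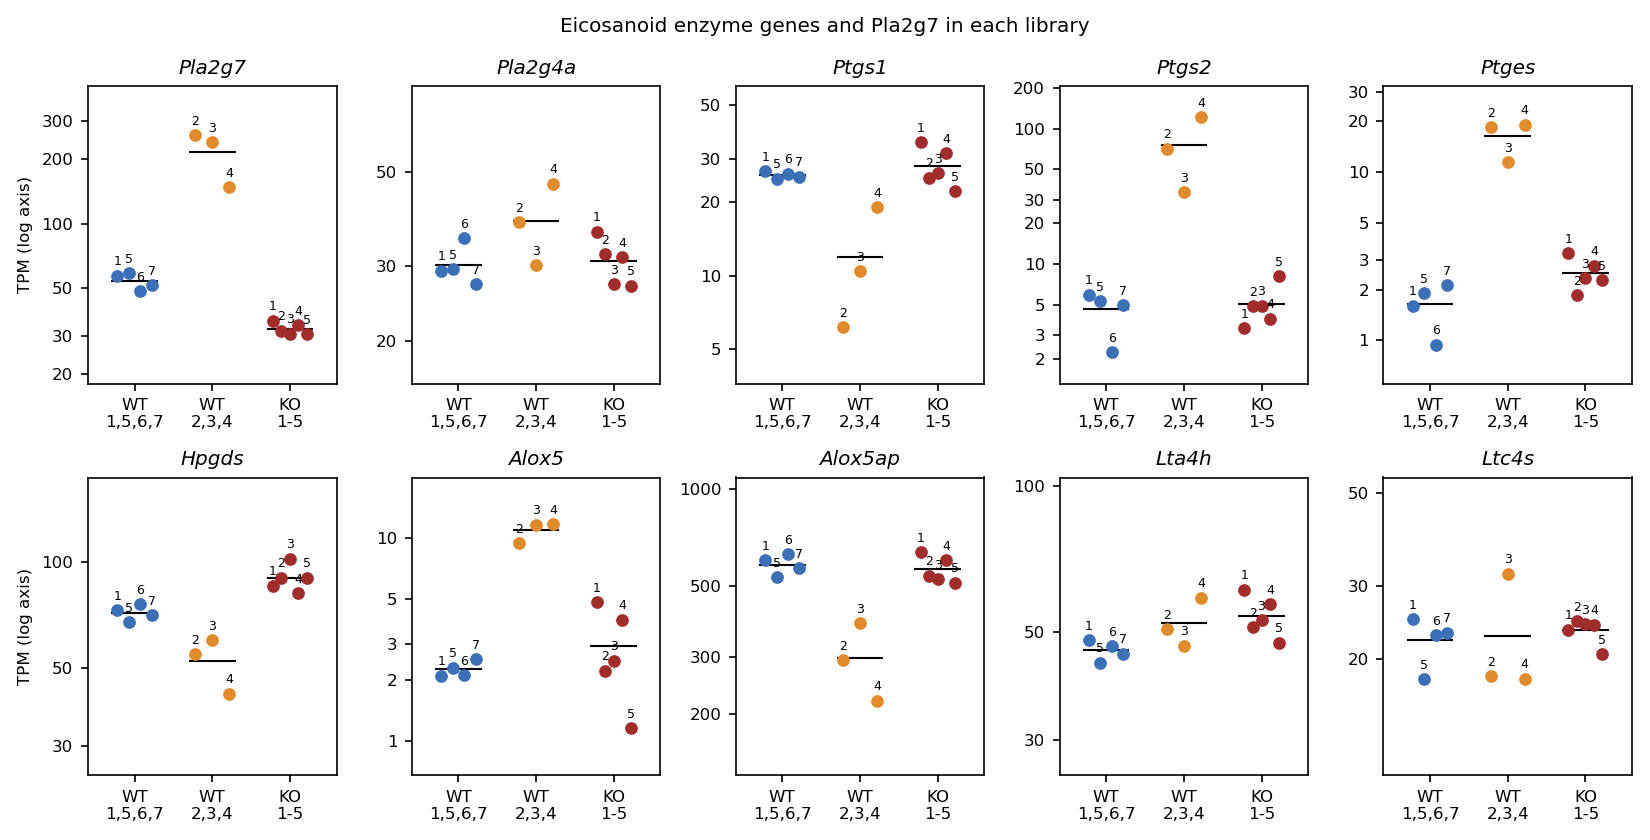
TPM (log axes) of the 10 genes in each library, with WT replicates 1, 5, 6 and 7 (blue), WT replicates 2, 3 and 4 (orange) and the 5 KO libraries (red); digits are replicate numbers and lines are means of the points shown. Pla2g7 is lower and Hpgds higher in all 5 KO libraries than in all 7 WT libraries, while the orange points stand apart for 7 of the 10 genes.

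Pla2g7 was lower in KO and Hpgds was higher, with no overlap between the genotypes for either gene. Without WT replicates 2, 3 and 4, both differences passed the threshold, and none of the other 8 enzymes did. With all 12 libraries none of the 10 passed, against 0.126% of all tested genes (0.108% higher and 0.0179% lower in KO), and 2 of the 10 had an unadjusted p under 0.05, as did 17.5% of all tested genes. In the set of 9 libraries the share of all tested genes called was 2.33% (1.61% higher and 0.717% lower in KO), against 1 enzyme higher and 1 lower. An unadjusted p under 0.05 was reached by 4 of the 10 enzymes and by 18.9% of all tested genes. Log2 differences are KO minus WT means of log2(TPM + 1). The median log2 difference of the 10 enzymes was -0.01 with 12 libraries and 0.11 with 9, and that of all tested genes was 0.04 and 0.05. With all 12 libraries, 2.92% of tested genes had all KO above all WT libraries and 0.637% all KO below all WT, together 3.56%, against 1 enzyme each way. With the 9 libraries the shares were 7.09%, 2.08% and 9.17%, and again 1 enzyme lay each way. With 9 libraries, 180 genes were higher and 80 lower, or 83 and 138 under median-ratio scaling, which sets the typical gene equal across libraries.

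**Figure D2:**
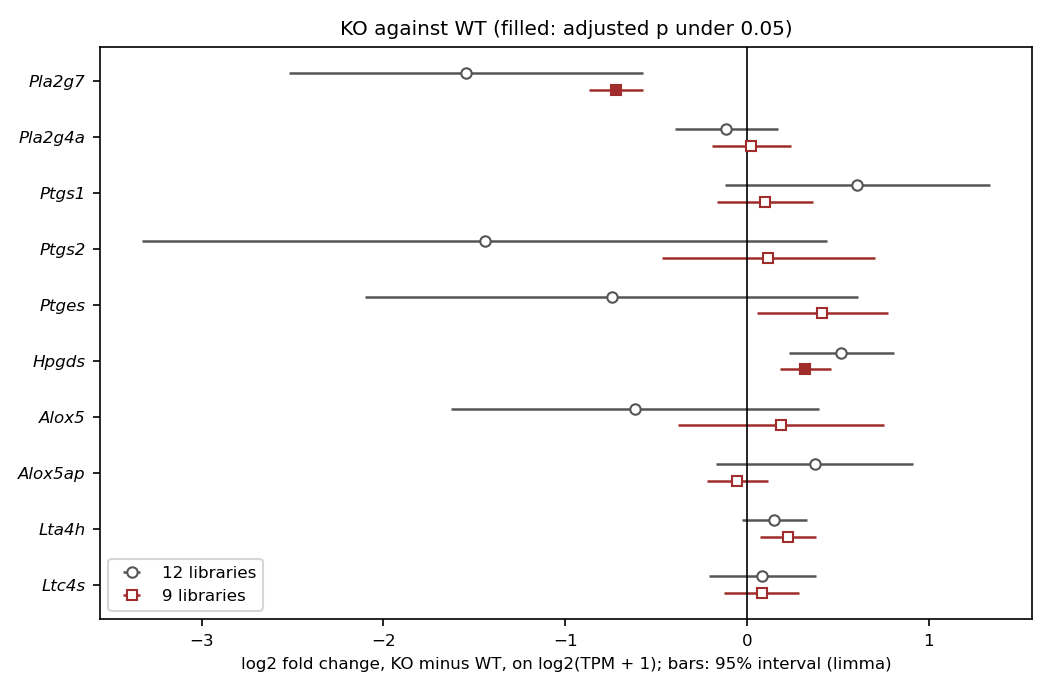
Log2 fold change of KO minus WT on the log2(TPM + 1) scale for the 10 genes, with 95% intervals from limma, using 12 libraries (grey circles) and the 9 left without WT replicates 2, 3 and 4 (red squares); filled symbols have an adjusted p under 0.05. Pla2g7 at -0.72 and Hpgds at 0.32 are the filled symbols, both with 9 libraries, and the 12-library intervals are wide for Ptgs2, Ptges and Alox5.

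Pla2g7 (ENSMUSG00000023913, chromosome 17, 43568098 to 43612201 on the plus strand in mm10) encodes the enzyme that removes the acetyl group of PAF and cuts short oxidised chains from phospholipids. It stood at 35.4, 31.7, 30.8, 33.7 and 30.6 TPM in KO replicates 1 to 5. WT replicates 1, 5, 6 and 7 held 57.4, 58.7, 48.6 and 51.8 TPM. WT replicates 2, 3 and 4 held 258, 239 and 148 TPM. Every KO library thus lay below every WT library, and WT replicates 2, 3 and 4 lay far above all others. With 9 libraries Pla2g7 fell in KO to 32.4 ± 2.05 TPM (SD, n = 5), where WT held 54.1 ± 4.74 TPM (SD, n = 4). The log2 difference was -0.72 ± 0.0662 (SE; adjusted p in limma 0.00232), or 0.608 of the WT level. With 12 libraries the log2 difference was -1.55 ± 0.446 (SE), with an adjusted p in limma of 0.208. The 12-library difference was larger and its error larger still, since the WT libraries differed among themselves.

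The Pla2g7 call with 9 libraries held when any 1 of them was left out, with log2 differences of -0.77 to -0.68 and adjusted p of 0.00145 to 0.0133 in limma. Across the 9 libraries the tested genes whose levels ran most like those of Pla2g7 were Gclm, Sec14l1 and Mettl1. Gclm encodes a subunit of glutamate-cysteine ligase, which begins the making of glutathione. Its Pearson correlation with Pla2g7 was 0.98 and its Spearman correlation 0.88, those of Sec14l1 were 0.97 and 0.67, and those of Mettl1 0.97 and 0.93. These are descriptions over 9 libraries of both genotypes, picked as the highest of all tested genes.

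A pair of stretches at the start of Pla2g7 are shown because this gene carries the clearest genotype difference, the first being the outer end of the promoter window and the second the bases across its start site. The windows are RefSeq promoters of GRCm38.p6, reaching from 250 bases before to 50 bases after a start site. They were found for 9 of the 10 genes, and each printed stretch holds at most 30 bases that GENCODE M21 places in an exon. The second Pla2g7 stretch lies wholly in an exon there, 29 bases of 29, since GENCODE starts the gene further upstream. Capitals mark matches to 7 short motifs searched on both strands. Shares are of 32851 promoters of 300 bases. The TATA box was searched as TATAAA and was held by 13.6% of them. The core of the cyclic AMP response element was TGACGT, held by 7.51%. The AP-1 motif was TGANTCA, held by 7.81%. The E-box was CACGTG, held by 7.15%. The C/EBP motif was TTGCNNAA, held by 10.8%. The antioxidant response element was TGACNNNGC, held by 12.4%. The core shared by Ets factors and PU.1 was GAGGAA, held by 28.3%.
Pla2g7, chr17:43568201-43568298, plus strand: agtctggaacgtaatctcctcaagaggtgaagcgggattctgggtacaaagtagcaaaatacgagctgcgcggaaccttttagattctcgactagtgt
Pla2g7, chr17:43568439-43568467, plus strand: cgccccccagGCACAGTCAggatccacgc
The second stretch holds the only match to the antioxidant response element among the windows of these 9 genes, on the minus strand and across the RefSeq start site. A match is a run of letters and no evidence of binding.

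Hpgds (ENSMUSG00000029919, chromosome 6, 65117293 to 65144908 on the minus strand) encodes the hematopoietic prostaglandin D synthase, which uses glutathione to make prostaglandin D2. It stood at 85.9, 90.4, 102, 81.7 and 90.6 TPM in KO replicates 1 to 5. WT replicates 1, 5, 6 and 7 held 73.0, 67.7, 76.0 and 70.8 TPM, and WT replicates 2, 3 and 4 held 54.9, 60.0 and 42.3 TPM. All KO libraries lay above all WT libraries, and the lowest KO library was near the highest WT library. With 9 libraries Hpgds rose in KO to 90.2 ± 7.77 TPM (SD, n = 5), where WT held 71.9 ± 3.50 TPM (SD, n = 4). The log2 difference was 0.32 ± 0.0632 (SE; adjusted p in limma 0.0348). With 12 libraries it was 0.52 ± 0.132 (SE; adjusted p in limma 0.16). The call with 9 libraries was near the threshold. It was lost without WT replicate 1, 5 or 7 or KO replicate 2 or 5, with adjusted p in limma of up to 0.105. It was lost also with median-ratio scaling (log2 fold change 0.27, adjusted p of 0.0581). A covariate splitting the libraries by the number that ends their column names lost it too (0.32, adjusted p of 0.0667). The outer end of its promoter window is shown as that of the other enzyme called, with a C/EBP match in capitals. The match lies within the 30 bases of this stretch that GENCODE places in an exon, since GENCODE starts the gene further upstream.
Hpgds, chr6:65144879-65144980, minus strand: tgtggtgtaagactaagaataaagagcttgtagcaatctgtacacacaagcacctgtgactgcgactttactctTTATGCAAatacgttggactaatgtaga
A C/EBP match was found in the windows of 2 of the 9 genes, Hpgds and Ptgs2.

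Ptges (chromosome 2, 30889471 to 30929863, minus strand) encodes the inducible microsomal prostaglandin E synthase that works with Ptgs2. Its levels were 3.28, 1.85, 2.33, 2.77 and 2.28 TPM in KO replicates 1 to 5 and 1.60, 1.90, 0.940 and 2.13 TPM in WT replicates 1, 5, 6 and 7. The genotypes overlapped between 1.85 and 2.13 TPM. The log2 difference was 0.42 ± 0.161 (SE; adjusted p in limma 0.206) with 9 libraries and -0.74 ± 0.622 (SE; adjusted p in limma 0.45) with 12, so the sign differed between the sets. WT replicates 2, 3 and 4 held 18.4, 11.5 and 19.1 TPM, above all 9 others. The ratio of Hpgds to Ptges was 26.2 to 48.9 in KO, 33.2 to 80.8 in the 4 WT libraries and 2.22 to 5.24 in WT replicates 2, 3 and 4.

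The cyclooxygenase genes ran in opposite directions in WT replicates 2, 3 and 4 and did not differ between genotypes beyond the spread in the 9 other libraries. Ptgs2 (chromosome 1, 150100031 to 150108227, plus strand) reached 71.3, 33.9 and 121 TPM in these 3 libraries. It was at 5.99, 5.37, 2.25 and 4.98 TPM in WT replicates 1, 5, 6 and 7 and at 3.39, 4.89, 4.94, 3.97 and 8.21 TPM in KO replicates 1 to 5. The mean of the 3 was 16.2 times that of the other 4 WT libraries. Ptgs1 (chromosome 2, 36230426 to 36252272, plus strand) was lower in the same 3 libraries, at 6.15, 10.4 and 19.1 TPM. It stood at 26.9, 25.0, 26.3 and 25.4 TPM in the other 4 WT libraries and at 35.3, 25.2, 26.3, 31.9 and 22.2 TPM in KO. Ptgs2 made up 76.5% to 92.1% of the summed Ptgs1 and Ptgs2 transcripts in WT replicates 2, 3 and 4. The share was 7.89% to 18.2% in the other 4 WT libraries and 8.77% to 27.0% in KO. These 3 libraries were set apart by their measured values, so the differences between WT libraries are descriptions with no test.

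Neither cyclooxygenase gene passed the threshold between the genotypes. For Ptgs2 the log2 difference was 0.12 with 9 libraries (95% interval -0.47 to 0.70, adjusted p in limma of 0.852) and -1.44 with 12 (-3.33 to 0.44, adjusted p of 0.338). For Ptgs1 it was 0.10 with 9 libraries (-0.17 to 0.36, adjusted p of 0.705) and 0.61 with 12 (-0.12 to 1.33, adjusted p of 0.32). The intervals with 12 libraries were thus wide for Ptgs2, and those with 9 libraries reached up to 0.70 on the log2 scale. The windows at the start sites of both genes are shown because the genes are a pair with one reaction and opposite levels.
Ptgs2, chr1:150099781-150100060, plus strand: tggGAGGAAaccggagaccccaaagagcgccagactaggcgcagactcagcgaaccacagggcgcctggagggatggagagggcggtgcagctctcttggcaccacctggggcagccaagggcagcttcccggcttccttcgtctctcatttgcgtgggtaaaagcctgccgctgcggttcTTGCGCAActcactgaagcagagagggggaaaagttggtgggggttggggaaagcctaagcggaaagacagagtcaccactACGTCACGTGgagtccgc
Ptgs1, chr2:36230176-36230455, plus strand: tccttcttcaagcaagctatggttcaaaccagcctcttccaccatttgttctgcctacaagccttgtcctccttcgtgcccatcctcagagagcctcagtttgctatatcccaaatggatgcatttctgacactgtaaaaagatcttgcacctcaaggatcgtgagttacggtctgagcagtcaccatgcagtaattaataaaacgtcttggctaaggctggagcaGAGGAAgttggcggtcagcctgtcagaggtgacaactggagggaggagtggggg
The Ptgs2 window held a cyclic AMP response element core overlapping an E-box, which together read ACGTCACGTG, at bases 12 to 21 after the RefSeq start site. It also held a C/EBP match that reads the same on both strands, and an Ets match. The Ptgs1 window held an Ets match alone of the 7 motifs. Ptgs2 was the single gene of the 9 with the cyclic AMP core or the E-box, and 7 of the 9 had an Ets match.

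Pla2g4a (chromosome 1, 149829618 to 149961290, minus strand) is the neighbour of Ptgs2, and the genes point away from each other across 138740 bases with no protein-coding gene between them. Levels of Pla2g4a were 38.0, 30.1 and 46.8 TPM in WT replicates 2, 3 and 4, 29.2, 29.5, 34.9 and 27.2 TPM in the other 4 WT libraries, and 36.1, 31.96, 27.2, 31.5 and 26.9 TPM in KO. All groups overlapped. Among WT replicates 2, 3 and 4 the order was that of Ptgs2, with replicate 4 highest and replicate 3 lowest. Ptges and Lta4h, which lie on other chromosomes, had the same order, so it is not particular to the neighbours. Between the genotypes the log2 difference was 0.02 ± 0.0971 (SE) with 9 libraries and -0.11 ± 0.13 (SE) with 12, with adjusted p in limma of 0.927 and 0.575.

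In the lipoxygenase arm none of the 4 genes passed the threshold in either set of libraries. Alox5ap (chromosome 5, 149264767 to 149288153, plus strand), which presents arachidonic acid to 5-lipoxygenase, stood at 637, 537, 525, 599 and 510 TPM in KO and 600, 532, 625.2 and 567 TPM in WT replicates 1, 5, 6 and 7. It was lower in WT replicates 2, 3 and 4, at 294, 382 and 221 TPM. The log2 difference was -0.05 ± 0.0738 (SE; adjusted p in limma 0.752) with 9 libraries and 0.37 ± 0.248 (SE, adjusted p of 0.369) with 12.

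Alox5 (chromosome 6, 116410077 to 116461178, minus strand), the lipoxygenase itself, was scarce beside its helper. WT replicates 1, 5, 6 and 7 held 2.09, 2.29, 2.10 and 2.53 TPM, and levels were 4.84, 2.22, 2.48, 3.95 and 1.15 TPM in KO replicates 1 to 5. WT replicates 2, 3 and 4 held 9.46, 11.6 and 11.7 TPM, above all 9 others. Alox5ap transcripts outnumbered those of Alox5 by 224 to 298 times in the 4 WT libraries, 132 to 444 times in KO and 18.8 to 32.8 times in WT replicates 2, 3 and 4. The log2 difference of Alox5 was 0.19 ± 0.253 (SE) with 9 libraries and -0.61 ± 0.464 (SE) with 12, with adjusted p in limma of 0.735 and 0.411.

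Lta4h (chromosome 10, 93453411 to 93484875, plus strand), the hydrolase that makes leukotriene B4, had a narrow range, 43.3 to 61.1 TPM over the 12 libraries. KO replicates 1 to 5 held 61.1, 51.2, 53.0, 57.1 and 47.6 TPM, WT replicates 1, 5, 6 and 7 held 48.2, 43.3, 46.9 and 45.2 TPM, and WT replicates 2, 3 and 4 held 50.7, 46.9 and 58.9 TPM. KO replicate 5 lay below WT replicate 1, and the other 4 KO libraries lay above the 4 WT libraries. For Lta4h the log2 difference was 0.23 ± 0.0695 (SE; adjusted p in limma 0.12) with 9 libraries and 0.15 ± 0.0816 (SE, adjusted p of 0.32) with 12. Ltc4s (chromosome 11, 50236461 to 50238616, minus strand), the leukotriene C4 synthase, lay at 23.5, 24.6, 24.3, 24.2 and 20.6 TPM in KO. WT libraries reached both below and above these values, at 17.9 to 32.1 TPM. Its log2 difference was 0.08 in both sets, with adjusted p in limma of 0.687 in both. Antisense genes overlap Pla2g7, Alox5ap and Ltc4s in the annotation, and the handling of strand is not given in the sources used here, so reads from such partners cannot be told apart.

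Set side by side, the summed lipoxygenase arm exceeded the summed cyclooxygenase arm in every library with Alox5ap included. Without Alox5ap it lay below the cyclooxygenase arm in every library. The 4 lipoxygenase genes summed to 580 to 726 TPM in KO, 596 to 697 TPM in WT replicates 1, 5, 6 and 7, and 309 to 473 TPM in WT replicates 2, 3 and 4. Alox5ap alone gave 86.8% to 88.0% of that sum in KO and 88.9% to 89.7% in the 4 WT libraries. Without Alox5ap the arm summed to 69.3 to 89.5 TPM in KO and 63.5 to 75.3 TPM in the 4 WT libraries. In WT replicates 2, 3 and 4 that smaller sum was 78.4 to 90.7 TPM, above the 4 WT libraries. The 4 cyclooxygenase genes summed to 120 to 136 TPM in KO, 100.01 to 108 TPM in the 4 WT libraries and 116 to 202 TPM in WT replicates 2, 3 and 4. The ratio of the arms was 4.44 to 5.69 in KO, 5.96 to 6.61 in the 4 WT libraries, and 2.47, 4.08 and 1.53 in WT replicates 2, 3 and 4. The KO libraries thus lay between both sets of WT libraries, without overlap with the first. These sums are over genes chosen with results known and carry no test. Hpgds made up 67.2% to 75.3% of the cyclooxygenase arm in KO and 67.7% to 72.1% in the 4 WT libraries, against 21.0% to 51.8% in WT replicates 2, 3 and 4.

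**Figure D3:**
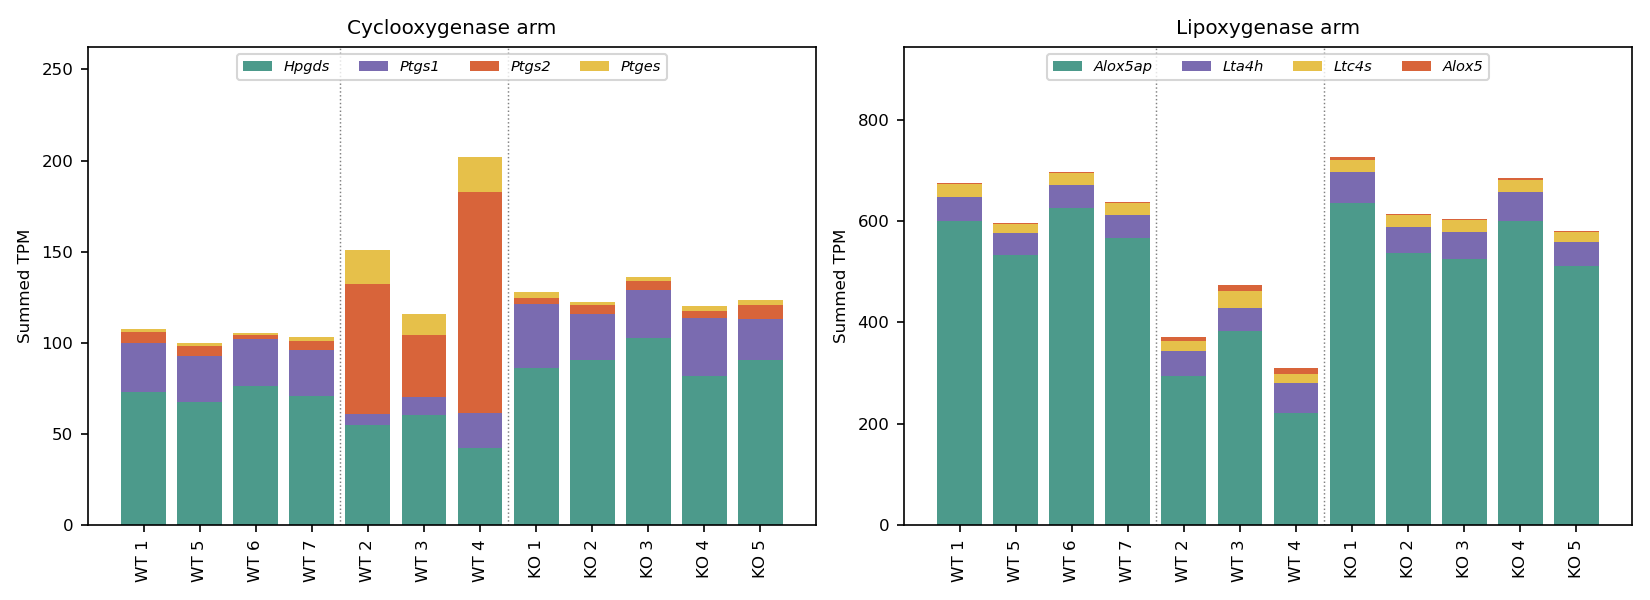
Summed TPM per library of the 4 cyclooxygenase arm genes (left) and the 4 lipoxygenase arm genes (right), stacked by gene, with dotted lines between WT replicates 1, 5, 6 and 7, WT replicates 2, 3 and 4, and KO. Hpgds fills most of the left bars except in WT replicates 2 and 4, and Alox5ap fills most of every right bar; the vertical scales differ.

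Across all 10 genes, WT replicates 2, 3 and 4 lay above the other 9 libraries in 4 (Pla2g7, Ptgs2, Ptges and Alox5), below them in 3 (Ptgs1, Hpgds and Alox5ap) and overlapped them in 3 (Pla2g4a, Lta4h and Ltc4s). Among all tested genes the shares were 23.6% above and 25.5% below. Against WT replicates 1, 5, 6 and 7 alone the same 4 lay above and the same 3 below, and of all tested genes 29.9% lay above and 28.3% below, together 58.2%. The ratio of their mean to that of the other 4 WT libraries was 3.97 for Pla2g7, 9.94 for Ptges and 4.86 for Alox5. The 3 libraries did not rank alike for every gene. WT replicate 4 was highest for Ptgs2 and WT replicate 3 lowest, whereas Pla2g7 was highest in WT replicate 2 and lowest in WT replicate 4.

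The level of Ptgs2 ran with the stromal marker sum. The stromal list held Col1a1, Col1a2, Col3a1, Acta2, Tagln, Dcn and Pdgfrb, and WT replicates 2, 3 and 4 lay above the other 9 libraries for 6 of the 7. Its sum was 5448, 3903 and 9784 TPM in WT replicates 2, 3 and 4, the same order as Ptgs2. Among the other 9 libraries the lowest sum, 112 TPM, was in WT replicate 6 and the highest, 605 TPM, in KO replicate 5, which were also the lowest and the highest in Ptgs2. Ptgs2 amounted to 8.68 to 20.01 TPM for each 1000 TPM of stromal markers over the 12 libraries, whereas Ptgs2 itself spanned 2.25 to 121 TPM. The genes that ran most like Ptgs2 over the 9 libraries were Akap12, Fat1 and Lama4, with Pearson correlations of 0.99, 0.99 and 0.99 and Spearman correlations of 0.95, 0.98 and 0.95. The part of stromal RNA in the level of Ptgs2 was not tested.

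Neutrophil markers ran with another group of enzymes inside the KO group. The 7 markers, among them S100a8, S100a9, Ngp and Ltf, summed to 6191 and 4333 TPM in KO replicates 1 and 4, to 2081, 1894 and 992 TPM in KO replicates 2, 3 and 5, to 1175 to 1529 TPM in WT replicates 1, 5, 6 and 7 and to 79.0 to 108 TPM in WT replicates 2, 3 and 4. Most of each sum came from S100a8 and S100a9, which stood at 1910 and 3507 TPM in KO replicate 1 and 1402 and 2375 TPM in KO replicate 4. Ly6g was at 5.92 and 2.32 TPM in these libraries. It was at 0.06 to 0.60 TPM in the other KO libraries and 0.06 to 1.21 TPM in WT. KO replicates 1 and 4 were the 2 highest KO libraries for 6 of the 10 enzymes, Pla2g7, Ptgs1, Ptges, Alox5, Alox5ap and Lta4h. They were the 2 lowest for Ptgs2 and Hpgds. Of all tested genes, 21.1% had these libraries as the 2 highest of the KO group and 18.7% as the 2 lowest. Markers of mast cells and basophils, which also use Hpgds and Ltc4s, summed to 14.2 and 8.79 TPM in KO replicates 1 and 4. The sum was 1.61 to 1.95 TPM in the other 3 KO libraries. It was 1.94 to 2.90 TPM in WT replicates 1, 5, 6 and 7. In WT replicates 2, 3 and 4 it was 7.46, 3.97 and 12.65 TPM, but the markers did not move together there. Mcpt8 was at 2.27 to 6.87 TPM, Gata2 at 0.93 to 5.28 TPM and Kit at 0.05 to 0.76 TPM in these libraries. Cpa3, Fcer1a and Prss34 were at 0 TPM there. Without KO replicates 1 and 4, a choice made after seeing the data, the 9-library log2 differences were -0.78 for Pla2g7 and 0.39 for Hpgds. Their adjusted p in limma were 0.00418 and 0.0256, so both differences were as large without them. The log2 difference of Alox5 went from 0.19 to -0.17. The neutrophil sums stayed unequal in this set, with KO replicates 2 and 3 above every WT library and KO replicate 5 below WT replicates 1, 5, 6 and 7. The genes that ran most like Ptgs1 were H2-Eb1, Fgr and Wfdc21 (Pearson 0.98, 0.97 and 0.96, Spearman 0.75, 0.85 and 0.87 over 9 libraries), and those most like Alox5 were Trim6, H2-Eb1 and Dgkg (0.98, 0.96 and 0.96, and 0.95, 0.75 and 0.85). The part of neutrophil RNA in these levels was not tested. T and B lymphocyte markers summed to at most 0.510 TPM in any library.

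**Figure D4:**
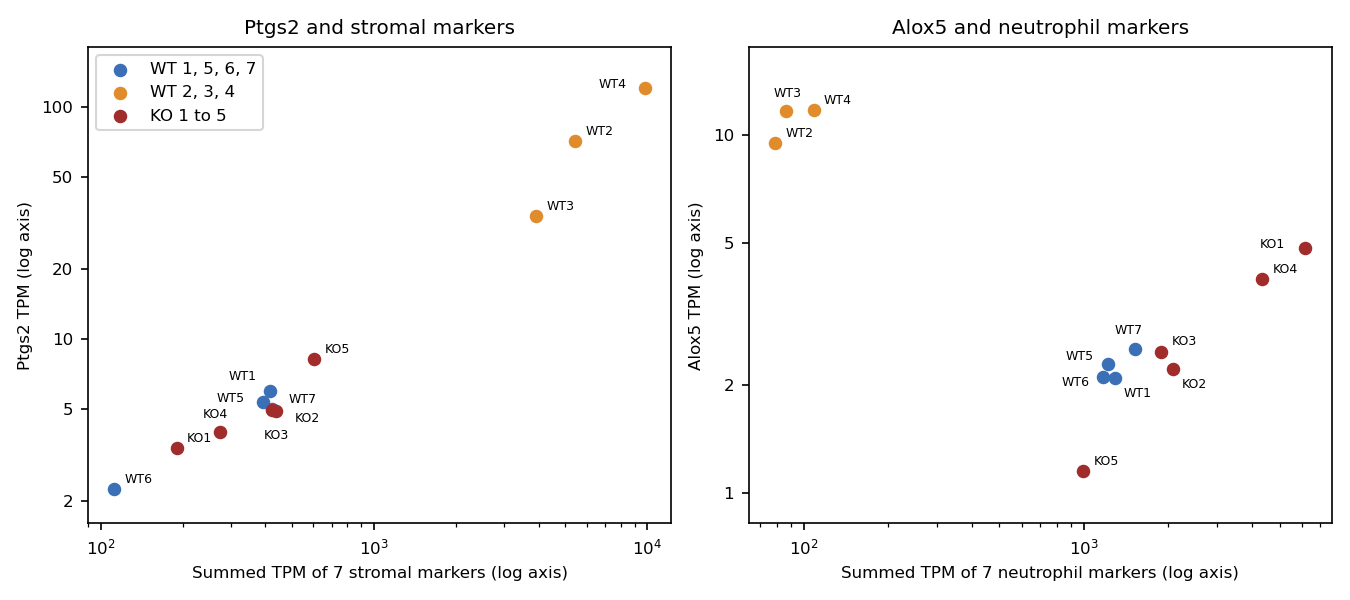
Left, Ptgs2 against the summed TPM of 7 stromal markers, and right, Alox5 against the summed TPM of 7 neutrophil markers, each point a library labelled with group and replicate, all axes logarithmic. Ptgs2 climbs with the stromal sum from 2.25 TPM in WT replicate 6 to 121 TPM in WT replicate 4, while Alox5 is highest in WT replicates 2, 3 and 4, where neutrophil markers are lowest, and next in KO replicates 1 and 4, where they are highest.

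The other genes of the pathway were read from a list of 71 in 10 classes, of which 70 were in the table and 46 were tested. With 12 libraries limma called none in either direction, beside 0.126% of all tested genes, and 14 had an unadjusted p under 0.05, beside 17.5%. With 9 libraries 1 was called higher and none lower, beside 2.33% called of all tested genes, and 11 had an unadjusted p under 0.05, beside 18.9%. Their median log2 difference was 0.00 with 12 libraries and 0.02 with 9, near that of all tested genes. The gene called was Pafah1b3, a catalytic subunit of the intracellular PAF acetylhydrolase. It stood at 55.5, 60.1, 62.3, 56.6 and 58.8 TPM in KO replicates 1 to 5. WT replicates 1, 5, 6 and 7 held 49.8, 49.99, 49.4 and 51.7 TPM, and WT replicates 2, 3 and 4 held 43.1, 40.8 and 49.0 TPM. All KO libraries lay above all WT libraries. The log2 difference was 0.22 ± 0.04 (SE; adjusted p in limma 0.0266) with 9 libraries and 0.30 ± 0.065 (SE, adjusted p of 0.137) with 12. The call with 9 libraries was lost in 9 of 17 other settings, among them leaving out WT replicate 1, 5 or 7 or KO replicate 2, 3 or 4, with adjusted p of up to 0.0868 in these. Pla2g7 and Pafah1b3, which both act on PAF, thus differed in opposite directions between the genotypes in the 9 libraries, while Pafah1b2, the partner catalytic subunit, had a log2 difference of 0.06 (adjusted p in limma 0.613).

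**Figure D5:**
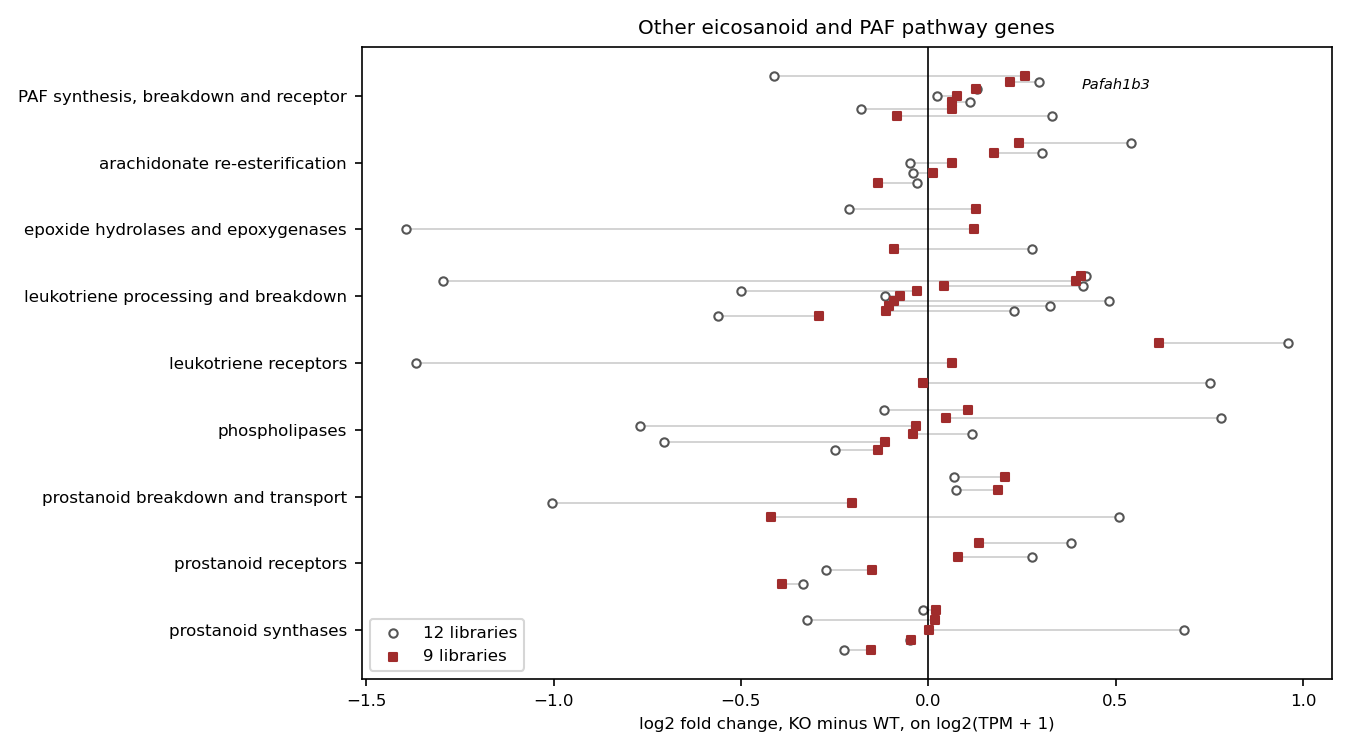
Log2 fold change of KO minus WT on the log2(TPM + 1) scale for the 46 tested pathway genes by class, with 12 libraries (open circles) and with the 9 left without WT replicates 2, 3 and 4 (red squares), joined by a line for each gene. Most squares lie near 0, Pafah1b3 is the gene called, and many circles lie far from their squares.

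Of the 6 tested genes in the phospholipase class, which also holds the lipase genes Daglb and Mgll, none was called. Daglb, a lipase that makes an arachidonic acid carrier, stood at 35.3 to 45.5 TPM in KO, 37.6 to 42.9 TPM in WT replicates 1, 5, 6 and 7 and 9.59 to 12.9 TPM in WT replicates 2, 3 and 4. The lysosomal Pla2g15 lay at 52.8 to 62.0, 55.7 to 63.7 and 36.8 to 53.0 TPM in the same groups. Among 5 tested prostanoid synthases, none of them called, Tbxas1, the thromboxane synthase, was at 154 to 193 TPM in KO and 173 to 190 TPM in the 4 WT libraries, more than Hpgds in each of these libraries, and at 42.8 to 79.1 TPM in WT replicates 2, 3 and 4. Akr1b3, an aldose reductase that can make prostaglandin F2alpha, lay at 173 to 199 TPM in every library. In the 4 tested genes of prostanoid breakdown and transport, Ptgr1 stood at 28.7 to 35.3 TPM in KO, 26.3 to 43.5 TPM in the 4 WT libraries and 112 to 163 TPM in WT replicates 2, 3 and 4. Ptgr2 lay at 37.0 to 40.7 TPM in KO, above the 30.9 to 35.0 TPM of WT replicates 1, 5, 6 and 7, while WT replicates 2, 3 and 4 held 39.5, 43.4 and 41.8 TPM and overlapped KO, with an adjusted p in limma of 0.0509 with 9 libraries. The prostanoid receptor genes Ptger4, for prostaglandin E2, and Ptgir, for prostacyclin, lay at 9.82 to 12.5 and 6.93 to 9.71 TPM in KO and at 9.26 to 13.7 and 8.19 to 9.35 TPM in the 4 WT libraries.

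On the leukotriene side, Dpep2, a dipeptidase that trims leukotriene D4, stood at 133 to 155 TPM in KO and 138 to 186 TPM in WT replicates 1, 5, 6 and 7. Cotl1, which binds 5-lipoxygenase, lay at 1260 to 1401 TPM and 1200 to 1355 TPM in these groups. Both were lower in WT replicates 2, 3 and 4, at 41.3 to 83.2 and 460 to 1081 TPM. Cysltr1, the receptor of cysteinyl leukotrienes, stood at 14.1 to 18.6 TPM in KO, 14.5 to 21.3 TPM in the 4 WT libraries and 2.65 to 5.99 TPM in WT replicates 2, 3 and 4. Fpr2, a receptor that also binds lipoxin, ran the other way, at 18.6 to 23.9 TPM in WT replicates 2, 3 and 4 and at most 2.82 TPM elsewhere. Mgst2, a membrane enzyme that can also make leukotriene C4, was named after its values were seen. Its levels in WT replicates 2, 3 and 4 were 128, 131 and 78.3 TPM, while WT replicates 1, 5, 6 and 7 held 3.80 to 7.40 TPM and KO libraries 7.41 to 10.4 TPM. In WT replicates 2, 3 and 4 it thus outnumbered Ltc4s, and in the other 9 libraries Ltc4s outnumbered it. The other lipoxygenase genes, Alox15, Alox12, Alox12b, Alox8 and Aloxe3, stayed under 1 TPM in all 12 libraries and were not tested.

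For the remaining classes, Acsl1 and Acsl4, which return arachidonic acid to membranes, had log2 differences of 0.24 and 0.17 with 9 libraries (adjusted p in limma of 0.0914 and 0.0893). Acsl4 was at 28.9 to 31.6 TPM in KO and 19.7 to 28.7 TPM in the 7 WT libraries. Acsl4 and Pafah1b3 were the 2 of 46 tested pathway genes with all KO above all WT libraries, beside 2.92% of all tested genes. None had all KO below all WT, beside 0.637%. With 9 libraries 8 of the 46 had all KO above and 1 all KO below, beside 7.09% and 2.08%. Ephx1, the microsomal epoxide hydrolase, was at 3.86 to 7.91 TPM in KO, 3.44 to 7.69 TPM in the 4 WT libraries and 56.4 to 89.1 TPM in WT replicates 2, 3 and 4. WT replicates 2, 3 and 4 lay above the other 9 libraries for 15 of the 46 tested pathway genes and below them for 17, beside 23.6% and 25.5% of all tested genes.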

How the data were processed

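Libraries were prepared from total RNA with a NEBNext Ultra kit and read from both ends at 51 bases, as the labels' protocols state. Salmon 1.2.0, bcl2fastq and the build mm10 are named in the submitters' processing notes. The authors deposited 1 table of TPM values, a unit read here from the tool and from column sums. Annotation release, gene-level summing and strand setting: not given in the sources used here. Because TPM is a share, a rise of abundant transcripts lowers all others.

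Columns were matched to libraries by the names in the library descriptions. Symbols (23423 of 23438 IDs matched) and coordinates came from GENCODE M21 (GRCm38, mm10), and promoters from RefSeq (GRCm38.p6). limma 3.58.1 (R 4.3.3) was run with a mean trend on log2(TPM + 1), a pseudocount of 1, over the 11152 genes with a minimum of 1 TPM in 5 or more libraries. The model held genotype alone, and p-values are two-sided with Benjamini-Hochberg adjustment at 0.05. The fit was tested on simulated data. Log2 differences, taken after adding the pseudocount, understate changes of low genes. The closest libraries by Pearson correlation across genes, WT replicates 1 and 7, differed by over 1.5-fold in 145 genes. KO replicates 2 and 3 differed so in 139 genes. All libraries were counted as separate, although such differences may be technical.

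The members and lists were chosen with earlier results of these data known, as was leaving out WT replicates 2, 3 and 4. All members are named, with called pathway genes, at most 2 others a class by mean level, and the 3 genes most like Pla2g7, Ptgs1, Ptgs2 and Alox5. Alternatives were scaling, filters, a pseudocount of 0.1, sample weights, left-out libraries and 2 kinds of block. The first block was the replicate number. The other, called the submission block here, split the number that ends each column name (1 to 5 against 6 to 12). Whether that number marks a batch is not known, and the place of the split was a choice made here.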

Additional observations from a re-analysis of the deposited data

Results flagged for a closer look

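Ltc4s in KO replicate 5 lay at 20.55 TPM, apart from the other 4 KO libraries at 23.5 to 24.6 TPM. The gap was 0.748 of the range of the group on the log2(TPM + 1) scale. It was 1 of 22 groups examined over the 10 enzymes and Pafah1b3, and chance alone sets apart about 1 in 20 groups.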

How the results depend on the processing

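Over 11 genes and 414 recomputed fold changes, none that was called changed its direction, 388 kept their side of the threshold, 19 lost a call and 7 gained one. The count of enzymes called with 12 libraries was 0, and 3 with sample quality weights or 2 without WT replicates 2, 3 and 4. Among pathway genes it was 0, and 6 and 1 in these settings. Of the 11152 tested genes 14 were called with 12 libraries, 759 with sample quality weights and 260 without WT replicates 2, 3 and 4. Under the replicate block with 12 libraries 0 of all genes were called. The counts of enzymes and pathway genes thus rose along with that of all genes and are no trait of these lists. With 9 libraries and median-ratio scaling, 83 of all genes were higher and 138 lower. With 9 libraries 2 enzymes were called, 1 with median-ratio scaling, 1 without a filter and 1 with the submission block, and 1 to 2 when a library was left out. For pathway genes the count was 1 with 9 libraries, 0 with median-ratio scaling, 3 with a minimum of 5 TPM, 6 with sample quality weights, 0 with the submission block, 2 without KO replicates 1 and 4, which was chosen after seeing the data, and 0 to 3 when a library was left out. Leaving out WT replicate 1, 5 or 7 or KO replicate 2 or 5 left 1 enzyme called, always Pla2g7. Under the replicate block 0 enzymes and 0 pathway genes were called in both sets, with a Pla2g7 log2 difference of -0.80 (adjusted p in limma 0.437) over the 4 libraries of the 9 that share a number. With 12 libraries the correlation of same-numbered deviations from the group means was 0.22, 0.20, 0.14, -0.22 and -0.18 for numbers 1 to 5. With 9 libraries it was -0.28 for number 1 and 0.26 for number 5. The signs changed between the sets, so these values cannot show whether the numbers pair the libraries. The ratio of the arms is the same under any scaling of a library. Depth is unknown, so how far it limits low genes such as Ptges and Alox5 cannot be stated. The causes of these changes were not tested. With a minimum of 5 TPM, Ptges and Alox5 were not among the tested genes and have no value.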
